A study of Drosophila melanogaster with 6 samples.

Results

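The lipocalins *Karl*, *NLaz* and *GLaz* were examined in RNA-seq libraries of regenerating *Drosophila melanogaster* wing discs. These 3 genes were taken by their FlyBase symbol from the 16455 genes of the deposited tables. *Karl* was included because the study picked it as changed in these same libraries, so its difference between the labels is described here and is not independent evidence. *NLaz* and *GLaz* were set beside it as lipocalins, whatever their values. The libraries came from wing imaginal discs of larvae in the third instar, with 3 libraries labelled control and 3 labelled *CR40469*-KO. All 6 carried salE/Pv-LHG:tub-Gal80TS and lexO-rpr and expressed the pro-apoptotic gene *rpr* for 16 h. The salE/Pv enhancer restricts LHG, a lexA-based activator, to the central part of the disc, and Gal80TS blocks it until the temperature is raised. In the study, the label *CR40469*-KO stands for homozygotes of 1 deletion allele, in which an mCherry cassette replaces the lncRNA gene *CR40469*. Every library was a pool of dissected discs. Discs without cell death were not analysed here, so the comparison is that of genotype labels among damaged discs.

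Lipocalins are small, mostly secreted proteins whose barrel-shaped fold holds a hydrophobic ligand. *GLaz* and *NLaz* are fly relatives of vertebrate apolipoprotein D and are named after the glial and neural Lazarillo proteins. *GLaz* is known for protection against oxidative stress in the nervous system. *NLaz* is known as a gene that JNK signalling switches on under stress and that dampens insulin signalling. JNK signalling is also active in regenerating discs, where dying cells trigger it in their neighbours. In the Release 6 assembly (dm6), *Karl* (FBgn0030334) is on chromosome X from 11787381 to 11792253 on the plus strand, with 4 annotated transcripts. *NLaz* (FBgn0053126) is on chromosome 2L from 1359837 to 1361821 on the minus strand, with 3 transcripts. *GLaz* (FBgn0033799) is on chromosome 2R from 13163959 to 13168032 on the minus strand, with 6 transcripts. The tables give 1 value per gene, so the transcripts of a gene were not told apart.

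The deleted gene does not follow the labels. *CR40469* was at 46.44 to 99.61 TPM (a level per transcript length) in the libraries labelled control and at 293.78 to 535.93 TPM in those labelled *CR40469*-KO. Its near-identical copy *CR34335* was at 2442.97 to 3521.64 TPM and 1902.09 to 1938.29 TPM, and the TPM of both depend on how reads that fit either gene were assigned. Each direction below is therefore that of the labels, and "mutant" stands for the label only. *rpr* was also higher in every mutant library, as were 7.90% of the genes tested. It was at 144.06 to 189.81 TPM against 122.67 to 143.52 TPM (limma adjusted p = 0.819). All 10 wing disc genes examined as a check of the tissue, among them *nub*, *vg* and *ap*, passed the filter on low values, and their summed level was 477 to 767 TPM in the control libraries and 591 to 842 TPM in the mutant libraries. TPM are scaled to a fixed total and carry no sequencing depth, so the counting error behind a value is unknown. The study calls the libraries of a label biological replicates, but nothing in the labels says that they came from separate crosses. The p-values set the difference between the labels against the spread between these libraries.

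The lipocalins were expressed at very different levels, in the order *GLaz*, *Karl*, *NLaz* in all 6 libraries. *GLaz* was at 10.69, 12.02 and 15.93 TPM in replicates 1, 2 and 3 labelled control, against 9.70, 11.27 and 13.87 TPM in replicates 1, 2 and 3 labelled mutant. *Karl* was at 1.12, 1.12 and 1.42 TPM in the control libraries and at 2.91, 3.32 and 3.21 TPM in the mutant libraries. *NLaz* was at 0.21, 0.32 and 0.54 TPM in the control libraries and at 0.31, 0.93 and 0.38 TPM in the mutant libraries. No range of TPM of a lipocalin met that of its neighbour in this order within a label. *GLaz* was 9.55 to 11.2 times as high as *Karl* in the control libraries and 3.33 to 4.32 times as high in the mutant libraries. *Karl* was 2.63 to 5.33 times as high as *NLaz* in the control libraries and 3.57 to 9.39 times as high in the mutant libraries.

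**Figure D1:**
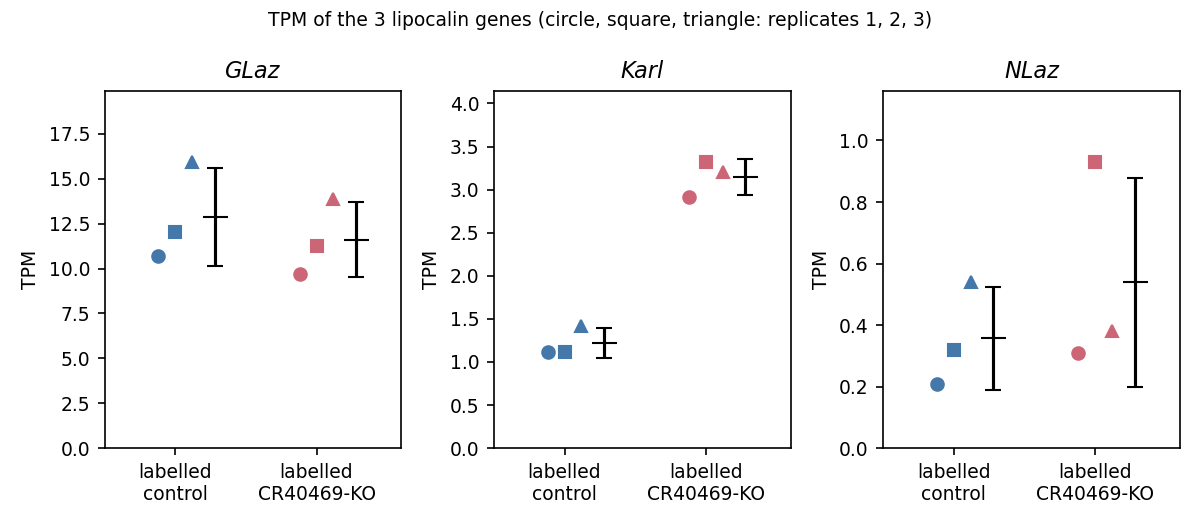
TPM of *GLaz*, *Karl* and *NLaz* in each library, with the vertical axis of each panel starting at 0 and on its own scale. Blue and red points are the libraries labelled control and *CR40469*-KO, and black bars give the mean ± SD of 3 libraries; the labels separate for *Karl* (at most 1.42 against at least 2.91 TPM) and overlap for *GLaz* and *NLaz*.

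Even *GLaz* was a gene of modest level in these discs. The filter asked for 1 TPM or more in any library and left 8051 genes to test. Between 19.1 and 35.3% of them were lower than *GLaz*, depending on the library. *Karl* stood above 5.09 to 6.96% of the tested genes in the control libraries and above 10.3 to 12.4% in the mutant libraries. *NLaz* stayed under 1 TPM in every library, with a maximum of 0.93, and did not pass the filter. The other members, *Karl* and *GLaz*, were over 1 TPM in all 6 libraries, so neither passed through 1 label alone. *Karl* made up 8.53 ± 0.71% (SD, n = 3) of the summed TPM of the lipocalins in the control libraries and 20.8 ± 2.14% (SD, n = 3) in the mutant libraries.

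*Karl* was the lipocalin with a difference between the labels. Its mean was 1.22 ± 0.17 TPM (SD, n = 3) in the control libraries and 3.15 ± 0.21 TPM (SD, n = 3) in the mutant libraries, a ratio of 2.58. All 3 mutant libraries were above all 3 control libraries, as they were for 7.90% of the tested genes (exact permutation p = 0.10, two-sided, which is the lowest that 3 against 3 libraries can give). On the log2(TPM + 1) scale, which understates the change of low genes, the difference was 0.90 (standard error 0.14, 95% confidence interval 0.59 to 1.21). The adjusted p was 0.0536 (limma, Benjamini-Hochberg over all tested genes), and 21 genes had a lower p. A gene was called at an adjusted p under 0.05 and a fold change over 1.7, which 0.224% of the tested genes met, and *Karl* was not called. The study used the same thresholds and did list *Karl* as changed. It used DESeq2 with a model of genotype, condition and their interaction, so its call and the one here differ in method. The median log2 difference of all tested genes was 0.13, and after each library was scaled by its median ratio the difference of *Karl* was 0.82.

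The size of the *Karl* difference moved little on leaving out a library (0.87 to 0.97) but depended on the pseudocount, and its call turned on the setting. With a pseudocount of 0.1 in place of 1, its log2 difference was 1.30 (standard error 0.15, limma adjusted p = 0.0250) and it was called. It was also called when 3 or more libraries had to reach 1 TPM (limma adjusted p = 0.0492) and without mutant replicate 1 (limma adjusted p = 0.0440). Without any other single library the limma adjusted p was between 0.117 and 0.288.

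**Figure D2:**
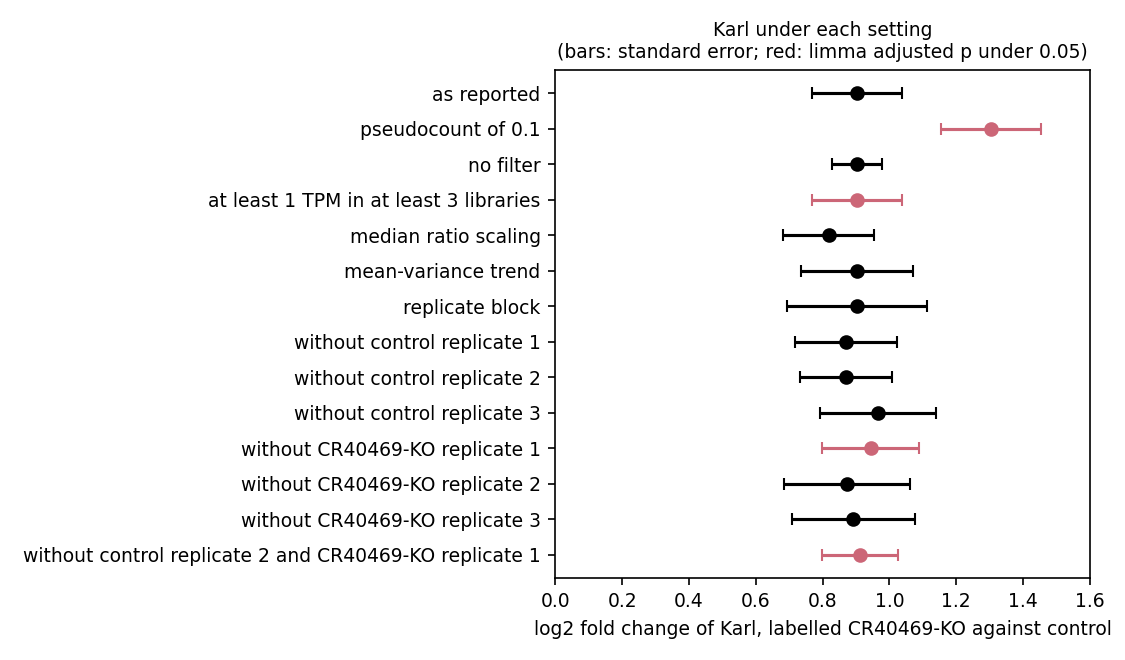
Log2 difference of *Karl* between libraries labelled *CR40469*-KO and control (horizontal axis) under each setting (vertical axis), with bars of 1 standard error. Red points have a limma adjusted p under 0.05; every point lies between 0.82 and 1.30, and the setting without 2 libraries was chosen after seeing the data.

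Some markers of other cell types also differed between the labels without being called. Of 5 tracheal genes measured, *Gasp*, *verm* and *btl* were higher in every mutant library, as were 7.90% of all tested genes, while *serp* and *trh* overlapped. The summed level of the list was 340 to 408 TPM in the control and 452 to 592 TPM in the mutant libraries. *Gasp*, a chitin-binding protein, was at 63.38, 41.84 and 38.79 TPM against 120.98, 73.05 and 74.78 TPM (log2 difference 0.88, standard error 0.26, limma adjusted p = 0.516). *verm*, a chitin deacetylase of tracheal tubes, was at 188.42 to 222.64 TPM against 248.26 to 294.80 TPM (limma adjusted p = 0.819). These genes are also expressed by epithelia that make cuticle. Of the 9 fat body genes, *Fbp1*, *Fbp2* and *Lsp2* were lower in every mutant library, as were 2.56% of all tested genes. These genes passed the filter only through control libraries, where they were higher, so their separation is a description. *Lsp1alpha*, at 0.57 TPM or less and untested, was also lower in each, and *Apoltp*, at 0.19 TPM or less and untested, was higher. *Lsp1beta*, *Lsp1gamma*, *Tsf1* and *apolpp* overlapped between the labels. *Fbp2* was at 3.02, 2.96 and 2.06 TPM against 0.52, 0.88 and 0.95 TPM (log2 difference -1.04, standard error 0.17, limma adjusted p = 0.0747). The summed level of the fat body list was 11.9 to 19.2 TPM against 8.52 to 13.5 TPM, which overlapped. The part of these cells in the *Karl* difference was not tested. In bulk discs, fewer cells of a type and less RNA per cell cannot be told apart.

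*GLaz* did not separate the labels. Its mean was 12.9 ± 2.72 TPM (SD, n = 3) in the control and 11.6 ± 2.11 TPM (SD, n = 3) in the mutant libraries. The highest and the lowest library differed by more within each label than the means did between the labels. The log2 difference was -0.13 (standard error 0.19, limma adjusted p = 0.824; two-sided exact permutation test, p = 0.60). The 95% confidence interval was -0.58 to 0.31, which on the TPM + 1 scale is a fold of 0.67 to 1.24. Without control replicate 3, the library with the highest *GLaz*, the log2 difference was 0.02. Of the 8 glial markers, 4 were under 1 TPM in every library. *repo*, the transcription factor of lateral glia, was at 0.04 to 0.12 TPM, *Eaat1* at 0.04 to 0.11 TPM, *alrm* at 0.03 TPM or less and *wrapper* at 0.29 to 0.58 TPM. *moody*, a receptor of the glial blood-brain barrier, was at 4.50 to 5.08 TPM in the control and 5.36 to 6.41 TPM in the mutant libraries. *Gli*, *Nrx-IV* and *nrv2* of the same list, which epithelia with septate junctions also express, were at 68.22 TPM or more in every library.

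*NLaz* was too low to pass the filter. Its mean was 0.36 ± 0.17 TPM (SD, n = 3) in the control and 0.54 ± 0.34 TPM (SD, n = 3) in the mutant libraries, and the labels overlapped. Mutant replicate 2 was the highest library at 0.93 TPM, while mutant replicates 1 and 3 were within the control range. The log2 difference was 0.17 (two-sided exact permutation test, p = 0.60), and without mutant replicate 2 it was -0.0057. When all 12496 genes above 0 TPM were fitted, the standard error was 0.18, the 95% confidence interval -0.30 to 0.63 and the limma adjusted p 0.870. A difference of *NLaz* was not detectable at this level, which is not to say that it was absent.

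Ratios within a library set the lipocalins against each other. The pseudocount of 1 weighs heavily in those that hold *NLaz*. The log2 ratio of *Karl* over *GLaz*, taken on TPM + 1, was -2.46, -2.62 and -2.81 in control replicates 1, 2 and 3 and -1.45, -1.51 and -1.82 in the mutant replicates. The mutant libraries were all higher, by 1.04 on average (two-sided exact permutation test, p = 0.10, adjusted over the 3 pairs p = 0.15). *Karl* over *NLaz* was 0.81, 0.68 and 0.65 against 1.58, 1.16 and 1.61. This ratio was also higher in every mutant library, by 0.73 on average (exact permutation test, p = 0.10, adjusted p = 0.15). With a pseudocount of 0.1 the difference was 0.88 (exact permutation test, p = 0.20), and the ratios of TPM themselves overlapped between the labels, as given above. *GLaz* over *NLaz* was 3.27, 3.30 and 3.46 against 3.03, 2.67 and 3.43. Here the labels overlapped, with a mean difference of -0.30 (exact permutation test, p = 0.30, adjusted p = 0.30). An exact test of 3 against 3 libraries cannot go below p = 0.10, and both ratios that hold *Karl* carry its selection by the study.

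**Figure D3:**
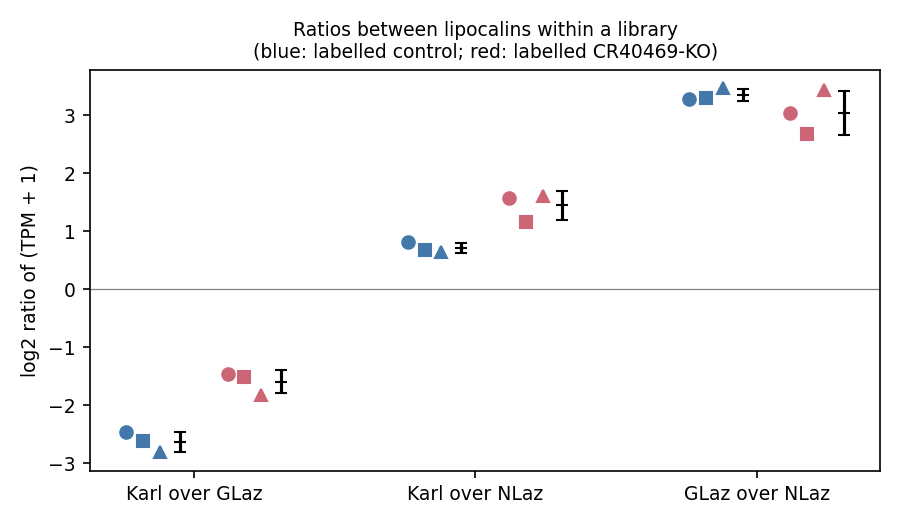
Log2 ratio of TPM + 1 between pairs of lipocalins in each library (vertical axis), with control libraries in blue, mutant libraries in red and black bars for the mean ± SD of 3 libraries. On this scale both ratios that hold *Karl* are higher in the mutant libraries, although that of *Karl* over *NLaz* overlaps on TPM without a pseudocount, and that of *GLaz* over *NLaz* overlaps (3.27 to 3.46 against 2.67 to 3.43).

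The surroundings of *Karl* on chromosome X were examined next. *Karl* lies 11.7 Mb from *CR40469*, and 6 other genes of the tables lie within 20 kb of it, of which 5 were tested and none was called. The antisense RNA *CR44962* (FBgn0266277) lies inside *Karl* on the opposite strand, from 11790796 to 11791777, and shares 661 bp with its exons. Its control libraries held 0.62, 0.50 and 0.19 TPM and its mutant libraries 0.22, 0.27 and 0.38 TPM, so the labels overlapped. Whether the counting used strand is not given in the sources used here, so reads of the shared stretch cannot be assigned to *Karl* or to *CR44962* with certainty. On the 3' side, *CkIIbeta*, the regulatory subunit of casein kinase 2, begins 280 bp from *Karl*. It was at 210.27 to 222.63 TPM in the control and 201.01 to 226.37 TPM in the mutant libraries (log2 difference -0.03, standard error 0.13). *Hsc70-3*, a chaperone of the endoplasmic reticulum, and *CG1578* overlapped between the labels as well.

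On the 5' side of *Karl* lie *dy* and *m*, which encode zona pellucida proteins that attach wing cells to the cuticle. *dy* (FBgn0004511), 8.60 kb from *Karl*, was at 1.29, 2.63 and 2.05 TPM in the control and at 3.19, 3.30 and 2.89 TPM in the mutant libraries. All mutant libraries were above all control libraries (log2 difference 0.49, standard error 0.19, unadjusted p = 0.0306, limma adjusted p = 0.819), and 3.03% of the tested genes were higher at an unadjusted p under 0.05. As for *dy*, all mutant libraries were above all control libraries for 7.90% of the tested genes. *m* (FBgn0002577), 17.9 kb away, was at 1.41, 2.84 and 1.90 TPM against 1.90, 6.58 and 5.22 TPM. Mutant replicate 1 lay within the control range for *m*, and the log2 difference was 0.78 (standard error 0.35, limma adjusted p = 0.819). Neither gene was called in all 6 libraries. The difference of *m* was 0.50 without mutant replicate 2 and 1.197 without mutant replicate 1, and that of *dy* was 0.31 without control replicate 1. Without both control replicate 2 and mutant replicate 1, a setting chosen after seeing the data, *m* was called (log2 difference 1.38, limma adjusted p = 0.0025). These libraries held the highest control and the lowest mutant level of *m*. Leaving them out widens its difference, so this call is a description. In that setting 168 genes were called, against 18 in all 6 libraries.

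**Figure D4:**
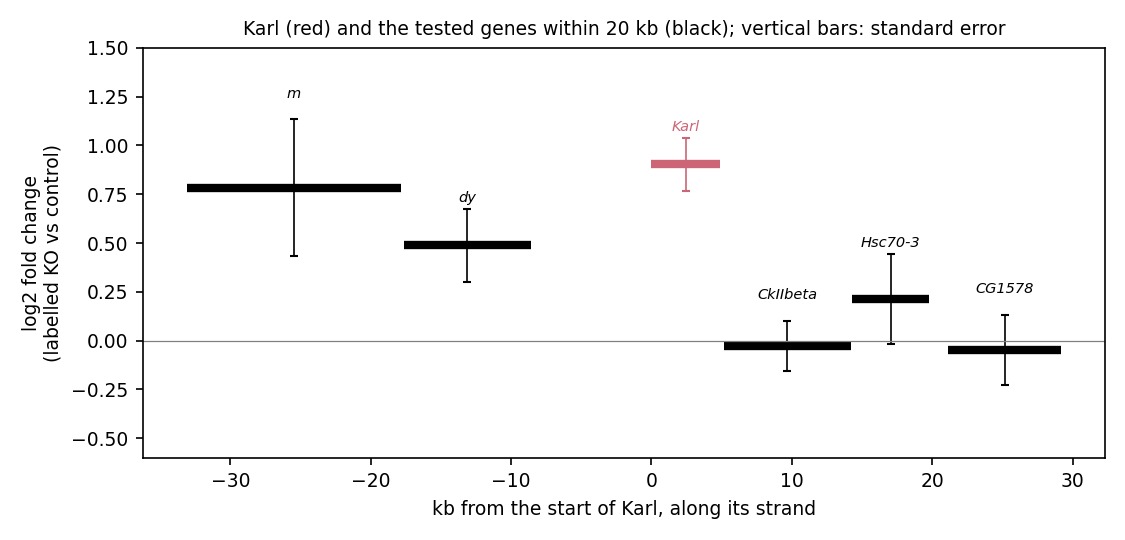
Log2 difference between libraries labelled *CR40469*-KO and control (vertical axis) of *Karl*, in red, and of the 5 tested genes within 20 kb, in black, against the distance in kb from the start of *Karl* (horizontal axis). Horizontal bars span the genes and vertical bars are 1 standard error; *m* (0.78) and *dy* (0.49) lie on the 5' side, and *CkIIbeta* (-0.03) on the 3' side.

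The other lipocalins lie in unlike surroundings. Of the 14 genes within 20 kb of *NLaz*, 12 were at 0.08 TPM or less in every library and were not tested. The nearest, *CG31659*, lies 47 bp away on the same strand and was listed at 0 in all libraries but mutant replicates 1 and 3, with 0.08 and 0.06 TPM. The tested genes were *robo2*, a receptor for the guidance cue Slit, and the lncRNA *CR44898*, both 18.3 kb away. *robo2* was at 42.47 to 74.79 TPM in the control and 54.15 to 101.62 TPM in the mutant libraries. *GLaz* has 12 such neighbours, of which 10 were tested and none was called. *Spt-I*, a subunit of the enzyme that starts sphingolipid synthesis, lies 466 bp from *GLaz* and was at 61.89 to 66.72 TPM against 63.46 to 72.52 TPM. The log2 differences of the tested neighbours of *GLaz* ranged from -0.17 to 0.45. Their lowest limma adjusted p was 0.819.

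The tested genes whose log2(TPM + 1) followed each lipocalin most closely over the 6 libraries were sought. With 6 libraries under shared labels and scaling, these correlations are descriptions. For *Karl* the closest were *CG11400* (Pearson r = 0.988), *CG5217* (r = 0.987) and the lncRNA *CR32368* (r = 0.986), and 37 tested genes had an r over 0.95. *CG11400* was at 0.52, 0.65 and 0.83 TPM in the control and 1.81, 1.74 and 1.93 TPM in the mutant libraries. *CG5217* had control levels of 0.26, 0.11 and 0.31 TPM and mutant levels of 1.52, 1.45 and 1.55 TPM. Its call (limma adjusted p = 0.0280) was lost on leaving out any library but mutant replicate 1. The call was also lost with a mean-variance trend (limma adjusted p = 0.0878) and with the replicate number as a block (limma adjusted p = 0.0838). *CR32368* had control levels of 1.52, 0.71 and 1.67 TPM and mutant levels of 7.33, 12.28 and 9.70 TPM. It was called (limma adjusted p = 0.0102), but not without control replicate 1 (limma adjusted p = 0.0508) or with no filter (limma adjusted p = 0.131). Their choice by likeness to *Karl* favours genes whose labels separate, so that separation is a description. *CG11400* and *CG5217* also passed the filter only through the mutant libraries, where they were higher, so the call of *CG5217* is a description as well. For *NLaz* the closest were *CG5021* (r = 0.987), the kinesin-like *Klp31E* (r = 0.983) and *CG3045* (r = 0.978). For *GLaz* they were *CG42713* (r = 0.994), *CG10232* (r = 0.918) and the RNA *CR44605* (r = 0.917). None of these companions of *NLaz* and *GLaz* separated the labels. *CG42713*, like *GLaz*, was highest in replicate 3 and lowest in replicate 1 of each label.

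Pathways in which lipocalins are known to act were then described. No gene of the JNK, insulin, oxidative stress or lipid carrier lists was called in all 6 libraries. Without both control replicate 2 and mutant replicate 1, a setting chosen after seeing the data, *Ilp8* of the JNK list and *Thor* of the insulin list were called. Both were lower in the mutant libraries that remained. For both genes the libraries left out held the lowest control level (*Ilp8* 1.29 and *Thor* 9.52 TPM) and the highest mutant level (19.55 and 21.01 TPM). Their removal lowers the difference, so these calls are a description. In that setting 168 genes were called, against 18 in all 6 libraries. In all 6 libraries the log2 difference was 0.14 for *Ilp8* and -0.36 for *Thor*. All 14 genes of the JNK list were tested, and none had an unadjusted p under 0.05 in either direction, where 3.03% of the tested genes were higher and 1.79% lower at that p. *rpr* was the only member above the controls in every mutant library, as were 7.90% of the tested genes. The median log2 difference of the list was 0.12 beside 0.13 for all tested genes. *puc*, the phosphatase that JNK induces against itself, was at 21.11, 42.17 and 22.42 TPM in the control and 22.86, 21.75 and 25.05 TPM in the mutant libraries. *Tak1*, a kinase upstream of JNK, was at 18.39 to 23.22 TPM against 21.36 to 29.60 TPM, and *hep*, the kinase that activates JNK, at 15.96 to 26.41 TPM against 20.45 to 29.89 TPM. *upd3*, a cytokine gene induced by damage, was at 0.40 to 0.69 TPM against 0.53 to 1.24 TPM. Of the 14 insulin pathway genes, all were tested, none had an unadjusted p under 0.05, and the median was 0.20. *Tsc1*, an inhibitor of growth signalling, had the lowest p of the list, at 17.51 to 24.79 TPM against 22.40 to 28.59 TPM. *InR*, the insulin receptor, was at 6.80 to 14.73 TPM against 10.20 to 16.73 TPM, and *Ilp6* at 1.10 to 2.38 TPM against 2.10 to 2.38 TPM.

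The 13 tested genes of oxidative stress defence had a median log2 difference of 0.06, and 1 had an unadjusted p under 0.05, in the direction in which 3.03% of all tested genes did. This was *GstE1*, a glutathione transferase, at 33.99, 28.48 and 28.50 TPM in the control and 62.89, 35.67 and 41.49 TPM in the mutant libraries (log2 difference 0.57, standard error 0.22, limma adjusted p = 0.819). The difference of *GstE1* dropped to 0.34 on leaving out mutant replicate 1. *Sod3*, a superoxide dismutase, was at 257.95 to 298.03 TPM against 322.89 to 338.47 TPM. *Prx5*, a peroxiredoxin, was at 359.97 to 396.54 TPM against 242.87 to 341.99 TPM. The labels separated for these 3 genes, with *GstE1* and *Sod3* higher, as were 7.90% of the tested genes, and *Prx5* lower, as were 2.56%. Of the 14 lipid carrier and droplet genes, 11 were tested, and their median was 0.09. *Npc2a*, a sterol-binding protein, had the lowest p, at 16.06 to 23.72 TPM against 16.07 to 16.68 TPM (log2 difference -0.31, limma adjusted p = 0.819). *fabp*, a fatty acid binding protein and a relative of lipocalins in fold, was at 464.57 to 483.13 TPM against 392.37 to 545.29 TPM. The lipoprotein genes *apolpp* and *Apoltp*, which fat body cells express at high levels, were at 0.31 TPM or less in every library.

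**Figure D5:**
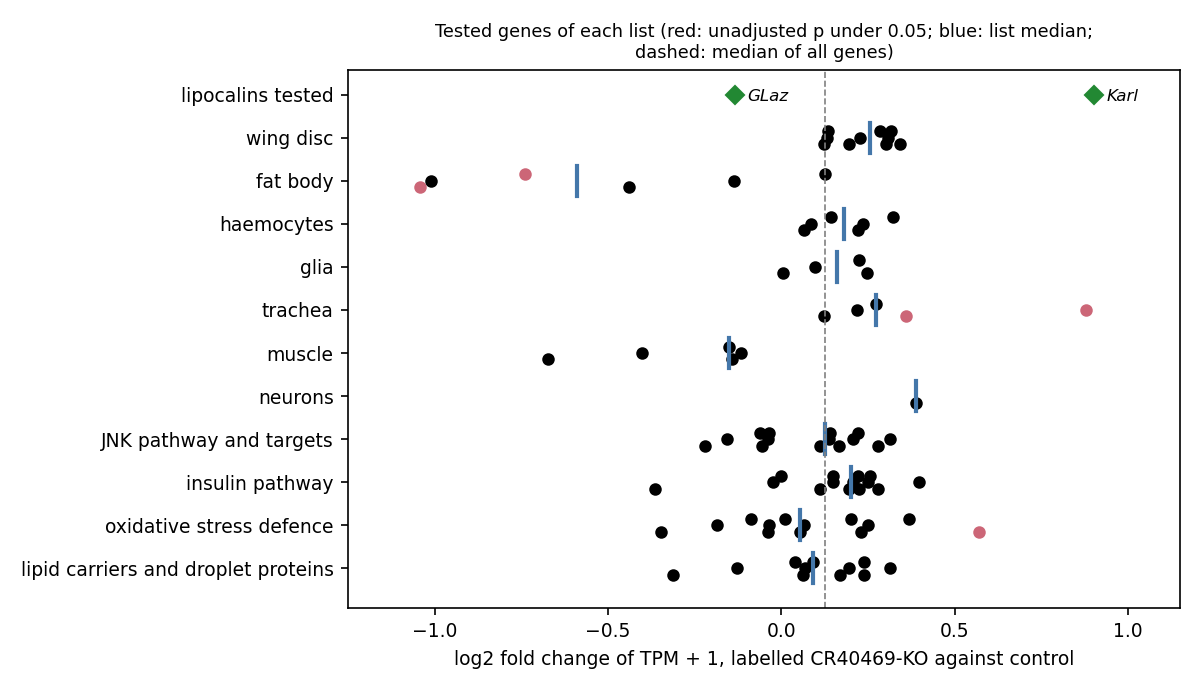
Log2 difference of TPM + 1 between libraries labelled *CR40469*-KO and control (horizontal axis) for *Karl* and *GLaz* (green diamonds) and for each tested gene of the marker and pathway lists (points). Blue lines are list medians and the dashed line is the median of all tested genes, 0.13; red points have an unadjusted p under 0.05 and none of the list genes was called.

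The summed levels of the remaining marker lists overlapped between the labels. Haemocytes, the blood cells of the larva, gave a summed level of 24.0 to 36.2 TPM in the control and 32.9 to 37.8 TPM in the mutant libraries, most of it from *crq*. The defining haemocyte gene *Hml* was at 0.06 to 0.45 TPM against 0.14 to 0.85 TPM. The glial list summed to 336 to 433 TPM against 367 to 445 TPM, and of its members *moody* was higher in every mutant library, as were 7.90% of the tested genes. *Eaat1*, untested at 0.11 TPM or less, was lower in each. Muscle genes summed to 14.7 to 38.8 TPM against 17.6 to 24.5 TPM. Of the 5 neuronal genes, *elav* alone was tested, at 6.39 to 8.87 TPM in the control and at least 9.02 TPM in the mutant libraries, so that its labels did not overlap, as for the same 7.90%. The synaptic genes *brp*, *nSyb* and *Syt1* were at 0.38 TPM or less.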

How the data were processed

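RNA-seq data of 6 libraries of regenerating wing discs were used, 3 labelled control and 3 labelled *CR40469*-KO. The authors aligned paired reads to dm6 with STAR 2.4.0j and quantified FlyBase genes with RSEM 1.2.21. The deposited values are TPM per gene, with 1 file per library, and hold no counts. Libraries were selected for poly-A RNA per the labels. Symbols matched 16402 of 16455 identifiers, and positions came from Ensembl release 115 on the same assembly.

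A linear model of log2(TPM + 1) on the genotype label was fitted with limma 3.58.1 (R 4.3.3) to the 8051 genes that reached 1 TPM in any library. Calls needed a fold change over 1.7 and an adjusted p under 0.05 by Benjamini-Hochberg. The fit was tested on simulated data. Changes were placed there only in genes of a higher mean level than *Karl* and *NLaz*, so that test does not cover their levels. Single values were compared with exact permutation tests. Alternatives were another pseudocount, other filters, another scaling, a mean-variance trend, a block for the replicate number, calls by adjusted p alone, and libraries left out. Of 107 list entries, 106 were matched by symbol or synonym, and *dys* was left out.

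The members and lists were chosen with earlier results of these data known. Named genes were the lipocalins, the genes within 20 kb of them, the 3 genes closest in pattern to each, and in each list genes from among the 4 with the lowest p. *puc*, *fabp*, *apolpp*, *Apoltp*, *Hml* and the marker genes named for their level or for labels that did not overlap lie outside this rule and were named after their values were seen. A search for related proteins and a count of promoter motifs had been planned and were not run, because no sequences were used here. Figures were drawn with matplotlib 3.10.9.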

Additional observations from a re-analysis of the deposited data

How the results depend on the processing

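*Karl* kept its direction under all settings, with log2 differences of 0.82 to 1.30 and limma adjusted p of 0.0062 to 0.288. It passed the threshold with a pseudocount of 0.1 (1.30), with at least 1 TPM in at least 3 libraries (0.90), without mutant replicate 1 (0.94), and without both control replicate 2 and mutant replicate 1 (0.91, limma adjusted p = 0.0062). The last setting was chosen after seeing the data, because these libraries had the highest summed level of wing disc genes in their label. With a library left out, *Karl* ranged from 0.87 to 0.97, *NLaz* from -0.0057 to 0.27 and *GLaz* from -0.26 to 0.019. *NLaz* changed sign without mutant replicate 2 (-0.0057) and *GLaz* without control replicate 3 (0.019). No ratio between lipocalins changed sign. *CkIIbeta* ranged from -0.070 to 0.016, changing sign without mutant replicate 1 (0.016), and was at 0.022 without both libraries. The cause of these shifts was not tested.

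Over all genes, 18 were called, and 11 with no filter. With a library left out there were 6 to 35 calls: leaving out control replicate 1 gave 6, control replicate 3 gave 9, mutant replicate 3 gave 11 and mutant replicate 1 gave 35. Without both libraries 168 were called, and 5 genes of the lists were among them (*Fbp2*, *up*, *wupA*, *Ilp8* and *Thor*), against 0 in all 6 libraries. Calls were thus more numerous among all genes as well, with 168 against 18. For *up*, *wupA*, *Ilp8* and *Thor* the libraries left out held the lowest control and the highest mutant level. Their removal lowers the difference of these genes, so their calls are a description. That was not so for *Fbp2*. With the replicate number as a block, 31 genes were called and *Karl* had a limma adjusted p of 0.171. Deviations of same-numbered libraries from their label means correlated at -0.026, -0.35 and 0.16. These values do not show that the numbers pair the libraries, and with 3 libraries per label they cannot exclude it. Levels under 1 TPM, such as those of *NLaz*, are limited by a depth that TPM do not show.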
